A study of Mus musculus with 7 samples.

Results

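Resident macrophage markers were followed in thoracic aortas as 10 genes, *Lyz2*, *Cd68*, *Csf1r*, *Mrc1*, *Cd163*, *F13a1*, *Adgre1*, *Cx3cr1*, *Fcgr3* and *Ctss*, out of 55487 genes in the deposited tables. They were chosen by name as genes that mark macrophages, with earlier results of these data known. The rule itself used no measured value, and all 10 were measured in every library and passed the filter on low counts. The question was whether they move together from one aorta to another, as the amount of a cell type would.

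The aortas came from 7-week-old male mice, 3 *Col3a1*+/G182R and 4 *Col3a1*+/+, with 1 library per mouse. *Col3a1*+/G182R mice are heterozygous for a knock-in allele of the type III procollagen gene, in which a glycine of the collagen helix is replaced by arginine, and *Col3a1*+/+ mice carry 2 wild-type alleles. The allele was made by recombination in embryonic stem cells, its selection cassette was removed with a FLP recombinase, and it is kept in the germ line on a C57BL/6J background (C57BL/6 in the labels), so every cell of the aorta carries it, macrophages included, and no treatment was given to either genotype. The labels say that aortas were removed and flash frozen, and the general collection protocol of the study froze the proximal part of the thoracic aorta after fat had been taken off. RNA was sequenced after poly(A) selection with a stranded kit, so a value is an average over all cells of the dissected piece.

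The libraries held 18820015 to 23953746 expected counts in *Col3a1*+/G182R and 13693861 to 21634680 in *Col3a1*+/+. The tissue label was met by its defining genes, since the summed level of 6 smooth muscle genes was 23856 to 25591 TPM (RSEM's level per length, scaled to a fixed total in each library) in *Col3a1*+/G182R and 17457 to 28553 TPM in *Col3a1*+/+. *Col3a1*+/G182R replicate 3 stands apart in the results below, and the value without it is given beside most of the differences that it moves. A p-value here measures the spread between single mice, and no batch is named for these libraries.

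Macrophages are phagocytes of tissues, and in the artery wall they sit mainly in the adventitia, the outer connective tissue coat. They depend on signals through the receptor encoded by *Csf1r*, take up debris through scavenger and Fc receptors and digest it in lysosomes, and their identity is held by transcription factors among which PU.1, encoded by *Spi1*, is the best known. Perivascular resident macrophages are known for *Mrc1*, *Cd163*, *Lyve1* and *Folr2*, whereas *Cx3cr1* is a feature of monocytes and of some macrophage subsets.

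The stretch before the start of transcription of members that moved together is shown first, because several of them carry a purine-rich core that PU.1 is known to bind. GAGGAA and its reverse complement TTCCTC were searched on both strands, from 250 bases before the start to 50 bases after it, in the promoter table of RefSeq (GRCm38.p6). Of all 32851 promoters in the table, 28.3% held this core, so a match is common and is given here as a description only. Windows of 8 of the 10 members were searched (*Csf1r* and *Adgre1* were not), and 5 of these 8 had a match. Counting only matches before the start, *Mrc1* had them at 180, 167 and 35 bases before, *F13a1* had 1 at 66 bases before, *Fcgr3* had 1 at 6 bases before, and *Ctss* and *Cd68* had 1 each at 164 and 225 bases before. The windows of *Lyz2*, *Cd163* and *Cx3cr1* held none. In the stretches printed here, 5′ to 3′ on the strand of the gene, capitals mark the core. The *Mrc1* stretch ends directly before the annotated start of the gene (14229392), short of the RefSeq start from which its positions are counted. Those of *F13a1* and *Fcgr3* end directly before a RefSeq start. For *Fcgr3* this start lies inside the annotated span of the gene (171051174 to 171064935), so the stretch is not the one before its outermost start. The searched window of *Cx3cr1* and another window of *F13a1* also lie inside the spans of their genes. The *Mrc1* stretch is chr2:14229294-14229391 on the plus strand, that of *F13a1* is chr13:37050245-37050364 on the minus strand, and that of *Fcgr3* is chr1:171059404-171059523 on the minus strand.
Mrc1: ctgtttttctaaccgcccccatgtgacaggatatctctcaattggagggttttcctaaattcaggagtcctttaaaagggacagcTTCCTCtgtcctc
F13a1: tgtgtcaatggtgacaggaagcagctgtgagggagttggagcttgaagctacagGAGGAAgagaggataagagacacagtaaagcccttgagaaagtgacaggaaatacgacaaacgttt
Fcgr3: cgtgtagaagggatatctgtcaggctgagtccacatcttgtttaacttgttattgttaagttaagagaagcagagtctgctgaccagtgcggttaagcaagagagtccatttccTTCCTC

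In the aortas, 9 of the 10 markers had a higher fitted level in *Col3a1*+/G182R than in *Col3a1*+/+, and *Cx3cr1* had a lower one. The median log2 fold change of the 10 was 0.88, against 0.0077 over all 15688 genes tested. By edgeR's quasi-likelihood test with adjustment over all genes, 0 of the 10 passed, and 0.0382% of all genes did. At an unadjusted edgeR p under 0.05, 6 of the 10 were higher, against 9.57% of all genes. DESeq2 called 2 of them, *Lyz2* and *Ctss*, both higher, and 4.61% of all genes in either direction. In bulk samples a change in the number of macrophages and a change in the RNA per macrophage cannot be told apart.

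Much of this difference came from 1 aorta. *Col3a1*+/G182R replicate 3 was the highest of the 7 libraries for 9 of the 10 markers, as it was for 17.3% of all genes tested. Without it, the median log2 fold change of the 10 was 0.26, and 1 of them had an unadjusted edgeR p under 0.05, as did 1920 of all 16173 genes tested. DESeq2 then called 0 of the 10 and 124 of all genes. The 2 DESeq2 calls were also lost without *Col3a1*+/G182R replicate 2 and without each of *Col3a1*+/+ replicates 2, 3 and 4, but there the DESeq2 log2 fold changes stayed at 0.95 to 1.11 for *Lyz2* and 1.06 to 1.39 for *Ctss*, against 0.52 and 0.61 without *Col3a1*+/G182R replicate 3. Without *Col3a1*+/G182R replicate 1 DESeq2 called 3 of the 10 and 498 of all 16035 genes. Without *Col3a1*+/+ replicate 1 it called 5 of the 10 and 1860 of all 15471 genes.

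**Figure D1:**
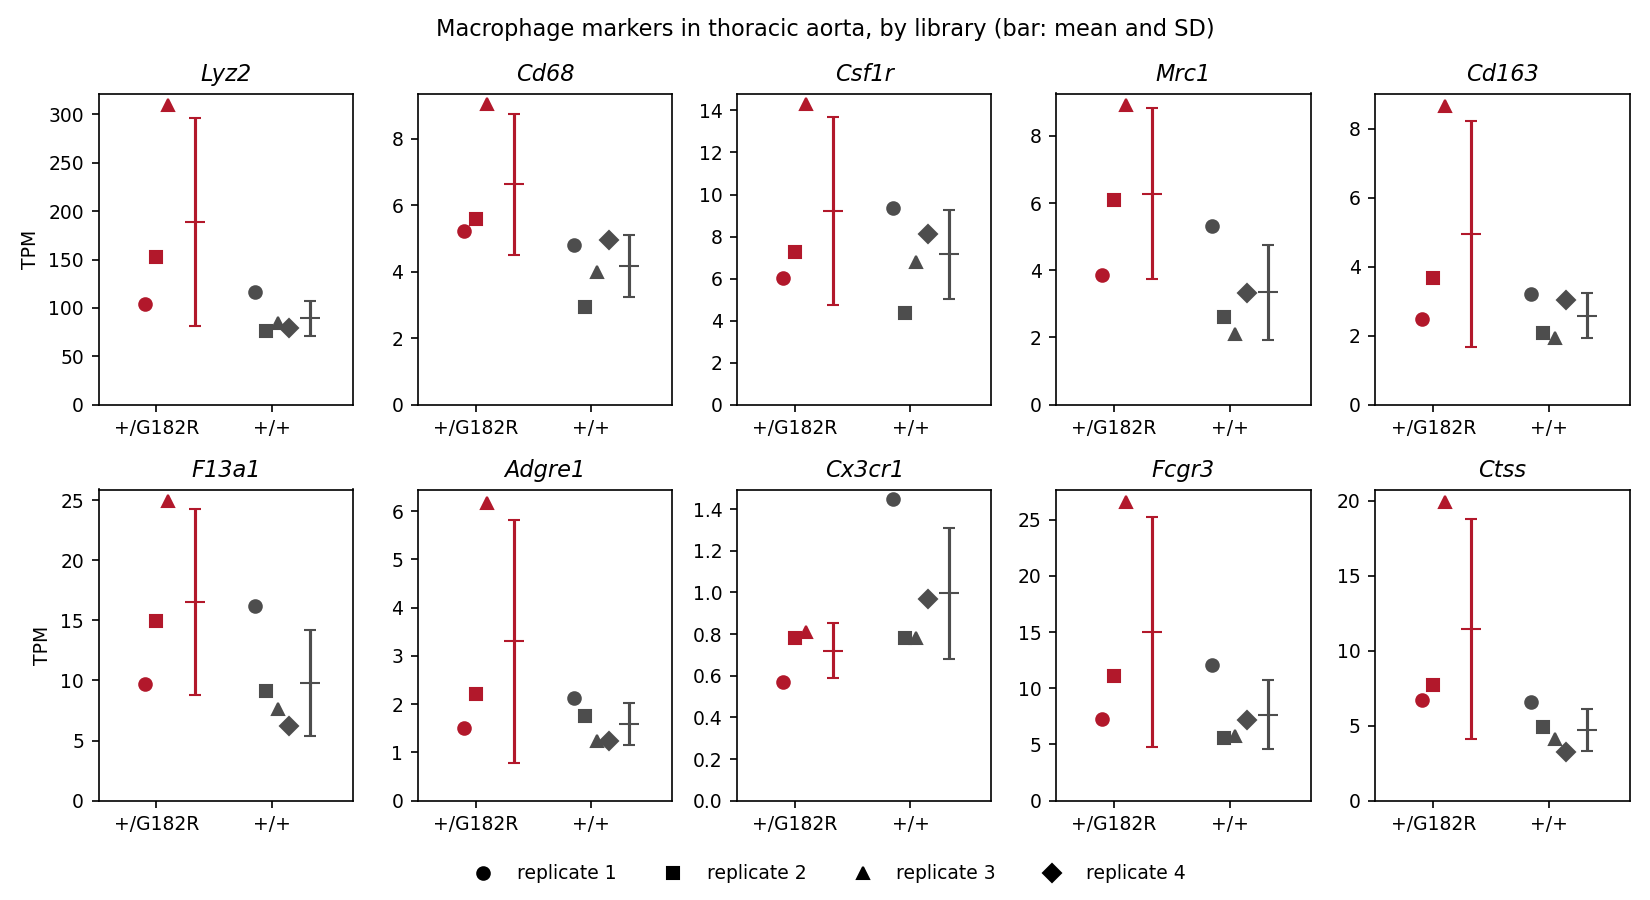
Level of each of the 10 macrophage markers in TPM (vertical axes, each from 0) in the 3 Col3a1+/G182R and 4 Col3a1+/+ aortas, with 1 point per library, its shape giving the replicate number, and the mean with its SD beside the points. Col3a1+/G182R replicate 3 is the highest point in every panel except Cx3cr1, where Col3a1+/+ replicate 1 is highest at 1.45 TPM.

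*Csf1r* (ENSMUSG00000024621, chromosome 18 of GRCm38, 61100598 to 61132149, plus strand) encodes the receptor for the growth factors CSF1 and IL-34, on which most tissue macrophages depend for survival. It had 6.03, 7.27 and 14.3 TPM in *Col3a1*+/G182R replicates 1 to 3, against 9.34, 4.37, 6.77 and 8.11 TPM in *Col3a1*+/+ replicates 1 to 4. The groups overlapped, 2 of the 3 *Col3a1*+/G182R aortas lay within the range of the *Col3a1*+/+ aortas, and replicate 3 alone lay above it. Its log2 fold change was 0.22 (SE 0.270, edgeR adjusted p = 0.652), and it was -0.14 (SE 0.247) without *Col3a1*+/G182R replicate 3, so that its direction turned.

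The ligands of this receptor gave no called difference. *Csf1* had 26.4, 23.8 and 41.4 TPM in *Col3a1*+/G182R, against 25.6, 16.8, 20.9 and 29.8 TPM in *Col3a1*+/+ (log2 fold change 0.42, SE 0.187, edgeR adjusted p = 0.245; 0.21 without *Col3a1*+/G182R replicate 3). *Csf1* was thus highest in the same aorta as the markers. *Il34* had 1.14, 2.98 and 3.23 TPM in *Col3a1*+/G182R and 2.46, 1.51, 1.98 and 6.53 TPM in *Col3a1*+/+, where replicate 4 stood highest (log2 fold change -0.30, SE 0.498, edgeR adjusted p = 0.746; -0.52 without *Col3a1*+/G182R replicate 3).

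*Cx3cr1* (ENSMUSG00000052336, chromosome 9, 119901616 to 120069879, minus strand) encodes the receptor for fractalkine, and it was the one marker that went another way. It had 0.57, 0.78 and 0.81 TPM in *Col3a1*+/G182R and 1.45, 0.78, 0.78 and 0.97 TPM in *Col3a1*+/+. The levels overlapped in TPM, and the highest library was *Col3a1*+/+ replicate 1. On the CPM scale (counts scaled by the TMM-corrected library total) the genotypes did not overlap, with at most 2.09 CPM in *Col3a1*+/G182R and at least 2.11 CPM in *Col3a1*+/+, as was the case for 10.8% of all genes in this direction. The log2 fold change was -0.50 (SE 0.297, edgeR adjusted p = 0.354), and -0.55 without *Col3a1*+/G182R replicate 3.

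The depth of this gene was low, with 33, 49 and 37 expected counts in *Col3a1*+/G182R and 77, 36, 36 and 37 in *Col3a1*+/+. Counting alone gives its log2 level an SD of 0.227, and these values cover counting error only. Its ligand gene *Cx3cl1* had 3.44, 3.09 and 2.60 TPM in *Col3a1*+/G182R and 2.80, 3.19, 2.25 and 4.61 TPM in *Col3a1*+/+, with overlapping groups and a log2 fold change of -0.08 (SE 0.264, edgeR adjusted p = 0.878; 0.05 without *Col3a1*+/G182R replicate 3).

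*Adgre1* (ENSMUSG00000004730, chromosome 17, 57358691 to 57483527, plus strand) encodes an adhesion receptor used as a general surface marker of mouse macrophages. It had 1.51, 2.22 and 6.18 TPM in *Col3a1*+/G182R, against 2.12, 1.76, 1.24 and 1.23 TPM in *Col3a1*+/+. *Col3a1*+/G182R replicate 1 lay among the *Col3a1*+/+ aortas, replicate 2 was just above them, and replicate 3 was far above. Its log2 fold change was 0.91 (SE 0.402, edgeR adjusted p = 0.241) and 0.23 without replicate 3.

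*Mrc1* (ENSMUSG00000026712, chromosome 2, 14229392 to 14332057, plus strand), whose stretch is printed above, encodes the mannose receptor of resident macrophages. It had 3.85, 6.09 and 8.91 TPM in *Col3a1*+/G182R, against 5.32, 2.62, 2.11 and 3.31 TPM in *Col3a1*+/+. The groups overlapped through *Col3a1*+/G182R replicate 1 and *Col3a1*+/+ replicate 1. Its log2 fold change was 0.87 (SE 0.333, edgeR adjusted p = 0.199), and it was 0.55 with *Col3a1*+/G182R replicate 3 left out.

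*Cd163* (ENSMUSG00000008845, chromosome 6, 124304656 to 124330527, plus strand) encodes the scavenger receptor for haemoglobin bound to haptoglobin. Its level was 2.49, 3.67 and 8.67 TPM in *Col3a1*+/G182R and 3.22, 2.09, 1.94 and 3.04 TPM in *Col3a1*+/+. *Col3a1*+/G182R replicate 1 lay inside the *Col3a1*+/+ range, replicate 2 a little above it and replicate 3 well above it (log2 fold change 0.89, SE 0.365, edgeR adjusted p = 0.217; 0.25 without replicate 3).

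*F13a1* (ENSMUSG00000039109, chromosome 13, 36867178 to 37050244, minus strand) encodes the A subunit of coagulation factor XIII, which resident macrophages and platelets make. It had 9.73, 14.9 and 24.9 TPM in *Col3a1*+/G182R, against 16.2, 9.14, 7.64 and 6.19 TPM in *Col3a1*+/+. *Col3a1*+/+ replicate 1 lay above 2 of the 3 *Col3a1*+/G182R aortas. The log2 fold change was 0.72 (SE 0.329, edgeR adjusted p = 0.252). With *Col3a1*+/G182R replicate 3 left out, the value was 0.37. DESeq2 did not call it either (adjusted p = 0.179). The 5 platelet genes had a median log2 fold change of 0.66 (0.42 without *Col3a1*+/G182R replicate 3), with 3 above 0, and a summed level of 41.8 to 55.4 TPM in *Col3a1*+/G182R and 23.7 to 67.1 TPM in *Col3a1*+/+. Of the 5, 0 rose by edgeR or DESeq2, and *Gp1bb* fell by DESeq2 only (log2 fold change -1.07, adjusted p = 0.0289; edgeR adjusted p = 0.165; log2 fold change -0.83 without *Col3a1*+/G182R replicate 3). The part of platelets in the value of *F13a1* was not tested.

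*Fcgr3* (ENSMUSG00000059498, chromosome 1, 171051174 to 171064935, minus strand) encodes a low-affinity activating receptor for IgG. Its level was 7.23, 11.1 and 26.6 TPM in *Col3a1*+/G182R and 12.1, 5.60, 5.79 and 7.14 TPM in *Col3a1*+/+. *Col3a1*+/+ replicate 1 again lay above 2 of the 3 *Col3a1*+/G182R aortas (log2 fold change 0.90, SE 0.393, edgeR adjusted p = 0.238; 0.27 without *Col3a1*+/G182R replicate 3). Its inhibitory relative *Fcgr2b*, which shares 5.42% of the 75-base windows of *Fcgr3* transcripts, had 5.65, 6.02 and 17.6 TPM in *Col3a1*+/G182R and 6.42, 3.54, 4.73 and 6.66 TPM in *Col3a1*+/+. A single read from these shared windows matches both genes, though its mate may not. Both genes were highest in the same aorta.

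*Cd68* (ENSMUSG00000018774, chromosome 11, 69664213 to 69666153, minus strand) encodes a glycoprotein of lysosomes and endosomes in macrophages. It had 5.22, 5.60 and 9.06 TPM in *Col3a1*+/G182R, against 4.81, 2.95, 3.98 and 4.96 TPM in *Col3a1*+/+. In TPM the genotypes did not overlap, by a margin of less than the spread within either. The share of all genes with no overlap in TPM was not counted, and in CPM it was 10.1% in this direction. In CPM they overlapped, and the log2 fold change was 0.48 (SE 0.289, edgeR adjusted p = 0.354), or 0.14 without *Col3a1*+/G182R replicate 3.

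*Ctss* (ENSMUSG00000038642, chromosome 3, 95526786 to 95556403, plus strand) encodes cathepsin S, a lysosomal cysteine protease that also cuts elastin and processes the invariant chain of MHC class II. It had 6.69, 7.74 and 19.9 TPM in *Col3a1*+/G182R, against 6.56, 4.89, 4.09 and 3.25 TPM in *Col3a1*+/+. The genotypes did not overlap, and of the 10 markers this was the only one that was higher in every *Col3a1*+/G182R aorta in CPM as well, as 10.1% of all genes were. The log2 fold change was 1.20 (SE 0.365), with an adjusted p of 0.167 by edgeR and 0.0422 by DESeq2, and it was 0.61 without *Col3a1*+/G182R replicate 3 (edgeR adjusted p = 0.434).

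*Lyz2* (ENSMUSG00000069516, chromosome 10, 117277331 to 117282321, minus strand) encodes the lysozyme of myeloid cells and was the marker with the highest level in all 7 libraries. It had 104, 152 and 309.6 TPM in *Col3a1*+/G182R, against 116, 76.2, 84.5 and 79.7 TPM in *Col3a1*+/+. *Col3a1*+/+ replicate 1 lay above *Col3a1*+/G182R replicate 1, and the other 3 *Col3a1*+/+ aortas lay below all *Col3a1*+/G182R aortas. The log2 fold change was 1.01 (SE 0.291), with an adjusted p of 0.164 by edgeR and 0.0290 by DESeq2. It was 0.52 without *Col3a1*+/G182R replicate 3 (edgeR adjusted p = 0.411).

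The neighbouring paralog *Lyz1*, a lysozyme best known from intestinal Paneth cells, shares 5.96% of the 75-base windows of *Lyz2* transcripts. A single read from these windows matches both genes, though its mate may not. *Lyz1* was much lower than *Lyz2*, with 6.64, 6.61 and 22.6 TPM in *Col3a1*+/G182R and 4.49, 8.31, 5.19 and 7.62 TPM in *Col3a1*+/+ (log2 fold change 0.81, SE 0.423, edgeR adjusted p = 0.301). *Lyz1* was thus also highest in *Col3a1*+/G182R replicate 3. The promoters of the pair are shown for their likeness, with 62 of 71 bases identical position by position. GAGGAA and TTCCTC were absent from both stretches, and other sequences that PU.1 may bind were not searched. The stretches lie at chr10:117282322-117282392 for *Lyz2* and chr10:117292918-117292988 for *Lyz1*, both on the minus strand.
Lyz2: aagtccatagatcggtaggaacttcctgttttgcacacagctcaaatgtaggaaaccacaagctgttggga
Lyz1: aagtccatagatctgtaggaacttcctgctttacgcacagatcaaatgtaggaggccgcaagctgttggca

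**Figure D2:**
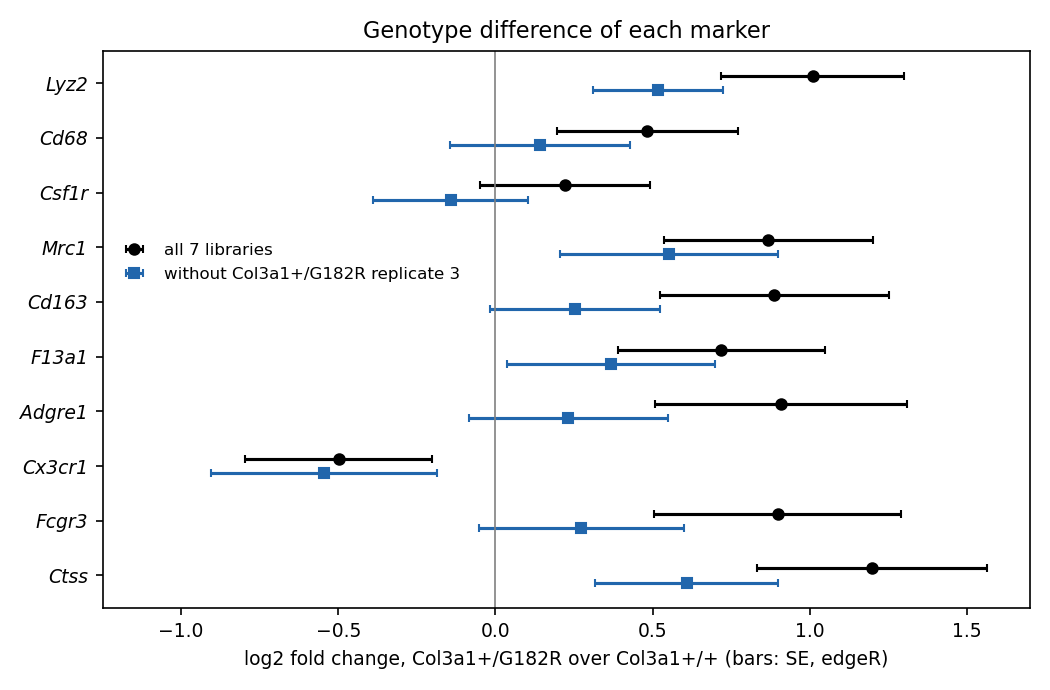
Log2 fold change of each macrophage marker, Col3a1+/G182R over Col3a1+/+ (horizontal axis), with its SE from edgeR, over all 7 libraries (circles) and without Col3a1+/G182R replicate 3 (squares). Without that library the value lies closer to 0 for 9 of the 10 markers, turns to -0.14 for Csf1r and is -0.55 for Cx3cr1.

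The markers did move together across aortas, apart from *Cx3cr1*, and less closely for *Csf1r* and *Cd68*. For each gene, log2 CPM was taken relative to its own mean over the 7 libraries, and the mean of these deviations over the 10 genes is called the shared part. It was -0.25, 0.24 and 1.03 in *Col3a1*+/G182R replicates 1 to 3, and 0.18, -0.40, -0.39 and -0.42 in *Col3a1*+/+ replicates 1 to 4. *Col3a1*+/G182R replicate 1 thus lay below *Col3a1*+/+ replicate 1, and the remaining 3 *Col3a1*+/+ aortas lay close to each other at the low end. The median deviation over all genes tested was 0.0020 to 0.0206 in these libraries. The scaling between libraries holds this median near 0, so it does not measure how unusual the shared part is.

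The shared part held 73.3% of the sum of squares of the 70 deviations, and 77.7% when each genotype was centred on its own mean. Both shares include *Col3a1*+/G182R replicate 3, the library with the largest shared part, and they were not computed without it. Such a share is not particular to these genes, since the same measure was 73.5% for endothelial, 73.0% for smooth muscle, 93.8% for red blood cell and 52.6% for the other macrophage genes listed. The SD of the shared part between mice was 0.645 in *Col3a1*+/G182R and 0.293 in *Col3a1*+/+. The difference of the genotype means was 0.60, or 0.25 without *Col3a1*+/G182R replicate 3. Within *Col3a1*+/G182R, 9 of the 10 markers followed the order replicate 3 over replicate 2 over replicate 1 in CPM, as did 21.4% of all genes tested. Within *Col3a1*+/+, replicate 1 was the highest in CPM for 9 of the 10, the exception being *Cd68*. The share of all genes for which that library was the highest of its genotype was not counted.

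**Figure D3:**
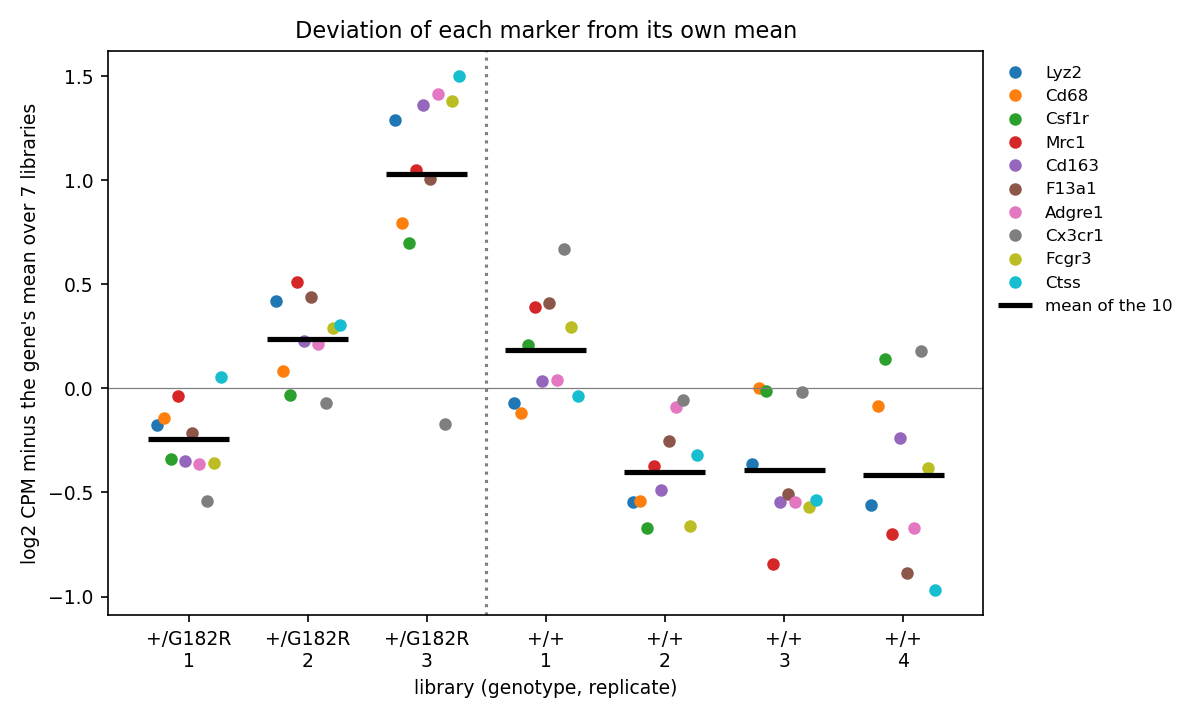
Log2 CPM of each macrophage marker minus its own mean over the 7 libraries (vertical axis), by library (Col3a1+/G182R left of the dotted line, Col3a1+/+ right of it), with 1 coloured point per gene and a black bar at the mean of the 10. The bar is at 1.03 in Col3a1+/G182R replicate 3, where Cx3cr1, at -0.17, is the only marker below 0.

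The members also varied around the shared part. After the shared part was taken off, the SD over libraries was lowest for *Cd163* at 0.184 and *Lyz2* at 0.188, where counting alone would give 0.130 and 0.0353. It was 0.205 for *Fcgr3*, 0.241 for *F13a1*, 0.247 for *Adgre1*, 0.273 for *Mrc1* and 0.280 for *Cd68*. It was highest for *Cx3cr1* at 0.643, followed by *Csf1r* at 0.347 and *Ctss* at 0.339. Each gene is part of the mean that was taken off, which lowers these values slightly. Variation of single genes between mice adds to these values and was not separated. Before the shared part was taken off, the SD was 0.368 for *Cx3cr1*, 0.403 for *Cd68*, 0.432 for *Csf1r* and 0.648 to 0.782 for the remaining markers. Pearson's r with the mean deviation of the other members was -0.05 for *Cx3cr1*, 0.72 for *Csf1r*, 0.83 for *Cd68* and 0.91 to 0.99 for the remaining markers.

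The departures can be followed by gene. In *Col3a1*+/G182R replicate 3, *Ctss* lay 0.47, *Adgre1* 0.38 and *Fcgr3* 0.35 above the shared part, whereas *Csf1r* and *Cd68* lay at -0.33 and -0.24 relative to it and *Cx3cr1* at -1.20. In *Col3a1*+/+ replicate 4, *Cx3cr1*, *Csf1r* and *Cd68* lay furthest above, by 0.60, 0.56 and 0.33. Furthest below in that library were *Ctss* and *F13a1*, at -0.55 and -0.47.

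Ratios to *Csf1r* do not depend on scaling between libraries. This denominator was picked after the values were seen, so the ratios are given with no test. Of the 9 ratios, 2 did not overlap between genotypes, those of *Mrc1* and *Cx3cr1*, and 7 did overlap, where over all genes tested 3.38% did not overlap. The ratio of *Lyz2* to *Csf1r* in TPM was 17.2, 20.9 and 21.6 in *Col3a1*+/G182R and 12.5, 17.4, 12.5 and 9.82 in *Col3a1*+/+. The ratio of *Mrc1* to *Csf1r* was 0.638, 0.838 and 0.623 in *Col3a1*+/G182R and 0.570, 0.600, 0.312 and 0.408 in *Col3a1*+/+. The *Lyz2* ratio overlapped through *Col3a1*+/+ replicate 2, and the *Mrc1* ratio was higher in each *Col3a1*+/G182R aorta. That of *Ctss* was 1.11, 1.06 and 1.39 in *Col3a1*+/G182R and 0.702, 1.12, 0.604 and 0.401 in *Col3a1*+/+, with overlap. The ratio of *Cx3cr1* to *Csf1r* ran the other way, at 0.0945, 0.107 and 0.0566 in *Col3a1*+/G182R and 0.155, 0.178, 0.115 and 0.120 in *Col3a1*+/+, with no overlap.

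Summed over the 10 markers, the level was 147, 212 and 429 TPM in *Col3a1*+/G182R and 178, 110.4, 119 and 118 TPM in *Col3a1*+/+. Of this sum *Lyz2* made up 70.5 to 72.2% in *Col3a1*+/G182R and 65.6 to 71.1% in *Col3a1*+/+, so the sum is mainly that of 1 gene. Without *Lyz2*, the sum was 43.3, 59.5 and 119 TPM in *Col3a1*+/G182R and 61.1, 34.2, 34.3 and 38.2 TPM in *Col3a1*+/+. In both sums *Col3a1*+/G182R replicate 3 was highest and replicate 1 lay below *Col3a1*+/+ replicate 1. The markers took 0.0168 to 0.0447% of all counts in *Col3a1*+/G182R and 0.0135 to 0.0210% in *Col3a1*+/+.

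Other genes of macrophages, listed by name and not by how they moved, had a smaller median difference than the markers, and not all of them moved alike. Of 20 such genes, 19 had a log2 fold change above 0 with a median of 0.58 (0.26 without *Col3a1*+/G182R replicate 3), 0 passed the edgeR test or DESeq2, and 8 had an unadjusted edgeR p under 0.05, all of them higher. *Tyrobp*, the adaptor through which many myeloid receptors signal, had 13.7, 24.2 and 33.9 TPM in *Col3a1*+/G182R and 15.3, 10.03, 11.3 and 12.5 TPM in *Col3a1*+/+ (log2 fold change 0.89, SE 0.279, edgeR adjusted p = 0.170; 0.59 without *Col3a1*+/G182R replicate 3). *Ptprc*, which encodes the leukocyte antigen CD45, had 0.86, 1.20 and 2.42 TPM in *Col3a1*+/G182R and 0.76, 0.38, 0.76 and 0.92 TPM in *Col3a1*+/+. In both genes *Col3a1*+/G182R replicate 3 was highest, and replicate 1 lay within the *Col3a1*+/+ range.

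*Apoe*, the apolipoprotein that macrophages and adipose tissue make, had 367, 536 and 642 TPM in *Col3a1*+/G182R and 315, 202, 281 and 413 TPM in *Col3a1*+/+ (log2 fold change 0.59, SE 0.227, edgeR adjusted p = 0.199; 0.46 without *Col3a1*+/G182R replicate 3). Here *Col3a1*+/+ replicate 4 lay above *Col3a1*+/G182R replicate 1.

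Of 12 genes of perivascular resident macrophages, 11 were tested, 9 had a log2 fold change above 0, 3 had an unadjusted edgeR p under 0.05, and the median was 0.36 (0.20 without *Col3a1*+/G182R replicate 3). Of these 11, edgeR called 0 and DESeq2 called 1, *Lyve1*. Below 0 were *Cbr2* and *Stab1* (log2 fold changes -0.17 and -0.01, or -0.13 and -0.25 without *Col3a1*+/G182R replicate 3). *Cbr2*, the highest of the list, had 570 to 712 TPM in *Col3a1*+/G182R and 737 to 853 TPM in *Col3a1*+/+, with overlap in CPM. The sum of all 12 was 1499.7, 1384 and 1697 TPM in *Col3a1*+/G182R and 1653, 1406, 1472 and 1477 TPM in *Col3a1*+/+, with overlap. Most of this sum is *Cbr2*, *Selenop* and *Gas6*, so it says little about the lower genes of the list. *Selenop* had 360 to 552 TPM in *Col3a1*+/G182R and 175 to 367 TPM in *Col3a1*+/+, and *Gas6* had 231 to 261 and 202 to 252 TPM. *Lyve1*, a hyaluronan receptor of resident macrophages and of lymphatic endothelium, had 3.53, 4.26 and 10.4 TPM in *Col3a1*+/G182R, against 3.97, 2.69, 1.97 and 1.59 TPM in *Col3a1*+/+. Its log2 fold change was 1.24 (DESeq2 adjusted p = 0.0341, edgeR adjusted p = 0.167), and 0.68 without *Col3a1*+/G182R replicate 3. The lymphatic endothelial list, of which *Lyve1* is one gene, had 5 of 5 tested genes above 0. Its median log2 fold change of 1.24 (0.68 without that library) is the value of *Lyve1* itself. In this list 0 were called by edgeR, 2 were higher at an unadjusted edgeR p under 0.05, and *Lyve1* alone was called by DESeq2. The summed level of the lymphatic list was 15.02, 16.3 and 26.8 TPM in *Col3a1*+/G182R and 16.2, 7.21, 13.1 and 12.0 TPM in *Col3a1*+/+. *Mmrn1*, a multimerin of lymphatic endothelium, had a log2 fold change of 1.25 (SE 0.482, edgeR adjusted p = 0.201), and *Prox1*, its defining transcription factor, one of 1.38 (SE 0.635, edgeR adjusted p = 0.255). The part of lymphatic endothelium in the value of *Lyve1* was not tested. *Folr2*, a folate receptor of the same subset, had 10.96, 13.6 and 29.5 TPM in *Col3a1*+/G182R and 13.02, 7.75, 7.77 and 12.6 TPM in *Col3a1*+/+, and like *Lyve1* it was highest in replicate 3 of *Col3a1*+/G182R (log2 fold change 0.25 without that library). *Selenop*, a secreted selenoprotein that many other cells express, had a log2 fold change of 0.67 (SE 0.225, edgeR adjusted p = 0.176; 0.51 without *Col3a1*+/G182R replicate 3).

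The tested genes among the remaining Fc receptors were also highest in *Col3a1*+/G182R replicate 3. Of 4, 3 were tested, and all 3 had a log2 fold change above 0 (median 0.70, and 0.29 without *Col3a1*+/G182R replicate 3), with 0 called by edgeR or DESeq2 and 2 higher at an unadjusted edgeR p under 0.05. *Fcer1g*, the signalling chain shared by activating Fc receptors, had 18.0, 22.0 and 36.9 TPM in *Col3a1*+/G182R and 18.1, 12.0, 14.1 and 20.5 TPM in *Col3a1*+/+, so that *Col3a1*+/G182R replicate 1 again lay within the *Col3a1*+/+ range (log2 fold change 0.30 without *Col3a1*+/G182R replicate 3).

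General lysosomal genes, which most cells express, had a smaller genotype difference than the markers. Of 13, 9 had a log2 fold change above 0 with a median of 0.09 and 0 were called (2 higher and 1 lower at an unadjusted edgeR p under 0.05, 0 by DESeq2). Their summed level was 4824, 4569 and 4947 TPM in *Col3a1*+/G182R and 5303, 4053, 4336 and 4022 TPM in *Col3a1*+/+. As in most markers, replicate 3 was the highest of *Col3a1*+/G182R and replicate 1 the highest of *Col3a1*+/+. *Lamp2*, a lysosomal membrane protein, had 82.4, 79.6 and 86.6 TPM in *Col3a1*+/G182R and 60.9, 57.4, 41.2 and 26.8 TPM in *Col3a1*+/+ (log2 fold change 0.79, SE 0.256, edgeR adjusted p = 0.170; 0.80 without *Col3a1*+/G182R replicate 3). The genotypes did not overlap in TPM or in CPM, and 10.1% of all genes did not overlap in CPM in this direction. The 3 *Col3a1*+/G182R aortas were close to each other, unlike in the markers.

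Genes that are induced in activated macrophages were mostly at very low levels. Of 13 such genes 5 passed the filter on low counts, and all 5 had a log2 fold change above 0 (median 0.70, and 0.38 without *Col3a1*+/G182R replicate 3), with 0 called by edgeR or DESeq2 and 1 at an unadjusted edgeR p under 0.05. *Retnla*, a secreted protein that mouse macrophages of the alternative type and also adipose tissue make, had 61.5, 51.5 and 168 TPM in *Col3a1*+/G182R and 37.4, 46.9, 35.6 and 50.1 TPM in *Col3a1*+/+ (log2 fold change 1.04, SE 0.340, edgeR adjusted p = 0.173; 0.38 without *Col3a1*+/G182R replicate 3). *Ccl2*, the chemokine that attracts monocytes, had 1.47, 2.67 and 2.69 TPM in *Col3a1*+/G182R and 1.11, 1.24, 0.91 and 1.43 TPM in *Col3a1*+/+. Its groups did not overlap in TPM but did in CPM, and no difference was called (log2 fold change 0.80, SE 0.373, edgeR adjusted p = 0.257; 0.71 without *Col3a1*+/G182R replicate 3).

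The genes whose log2 CPM was most like the shared part over the 7 libraries included 2 chains of complement C1q, which macrophages make. Of 14191 genes with a mean of at least 1 CPM, the 10 most alike were *Gfpt2*, *Cd300ld*, *Josd1*, *Lrch3*, *Arhgap30*, *Aldh1a3*, *Bdnf*, *C1qa*, the processed pseudogene *Gm7329* and *C1qc*, with Pearson's r from 0.992 for *Gfpt2* to 0.959 for *C1qc*. These values are a description with few points that share libraries, and 0.754% of all genes compared had an r of at least 0.9. *C1qa* had 23.2, 31.9 and 62.5 TPM in *Col3a1*+/G182R and 31.0, 16.9, 19.7 and 24.2 TPM in *Col3a1*+/+, so that *Col3a1*+/G182R replicate 3 was again the highest and *Col3a1*+/+ replicate 1 the highest of its genotype. *Bdnf*, which encodes a neurotrophin and is not known as a macrophage gene, had 2.73, 3.15 and 9.13 TPM in *Col3a1*+/G182R and 2.80, 1.68, 1.54 and 1.84 TPM in *Col3a1*+/+.

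*Col3a1*+/G182R replicate 3 was also high in markers of cells other than macrophages. The summed level of 7 fibroblast genes was 1162, 1369 and 1694 TPM in *Col3a1*+/G182R and 1380, 558, 765 and 779 TPM in *Col3a1*+/+, and 4 of the 7 were highest in *Col3a1*+/G182R replicate 3. For 6 adipocyte genes, of which 4 were highest there, the sum was 1346, 2141 and 1931 TPM in *Col3a1*+/G182R and 750, 838, 1269 and 1867 TPM in *Col3a1*+/+. Both lists share with the markers that *Col3a1*+/G182R replicate 1 lay inside the *Col3a1*+/+ range, and fibroblast genes share the high value of *Col3a1*+/+ replicate 1. In adipocyte genes that library was the lowest of the 7. The part of these cells in the markers' difference was not tested.

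Among single genes of these cells, *Adipoq*, the adiponectin of adipocytes, had 130.03, 239.6 and 334 TPM in *Col3a1*+/G182R and 82.9, 101, 121 and 163 TPM in *Col3a1*+/+ (log2 fold change 0.94, SE 0.299, edgeR adjusted p = 0.170; 0.65 without *Col3a1*+/G182R replicate 3). *Lum*, a proteoglycan of fibroblasts, had 70.1, 76.6 and 79.1 TPM in *Col3a1*+/G182R and 63.2, 30.9, 20.8 and 14.0 TPM in *Col3a1*+/+, where it was called by DESeq2 only (log2 fold change 1.20, adjusted p = 0.0425; edgeR adjusted p = 0.171; log2 fold change 1.20 without *Col3a1*+/G182R replicate 3). *Lum* was nearly level over the 3 *Col3a1*+/G182R aortas, unlike the markers.

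Of the blood cells that also express some members, neutrophils and lymphocytes were close to absent. *Ly6g*, the defining neutrophil gene, was at 0 in all 7 libraries, and 8 neutrophil genes together had 4.45 to 12.1 TPM in *Col3a1*+/G182R and 2.87 to 10.1 TPM in *Col3a1*+/+. Of 12 genes of T, B and NK cells 1 passed the filter on low counts, and their sum was 2.65 to 4.25 TPM in *Col3a1*+/G182R and 0.95 to 10.03 TPM in *Col3a1*+/+. Of 6 monocyte genes 5 were tested, with a median log2 fold change of 0.79 (0.25 without *Col3a1*+/G182R replicate 3) and 0 called by either test or at an unadjusted edgeR p under 0.05. *Ccr2*, the receptor by which monocytes enter tissue, had 1.17, 1.06 and 2.93 TPM in *Col3a1*+/G182R and 0.73, 0.97, 1.04 and 1.09 TPM in *Col3a1*+/+. The summed level of monocyte genes was 64.6 to 77.7 TPM in *Col3a1*+/G182R and 40.1 to 88.9 TPM in *Col3a1*+/+, so these groups overlapped. Most of this sum is *Ace*, a peptidase gene that endothelium expresses too, with 59.1, 54.9 and 64.9 TPM in *Col3a1*+/G182R and 85.0, 36.9, 34.03 and 36.6 TPM in *Col3a1*+/+.

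Genes of dendritic cells and of MHC class II, which macrophages can express as well, had their highest sum in the same aorta. Of 10 such genes 7 were tested, and 5 had a log2 fold change above 0 (median 0.55, and 0.16 without *Col3a1*+/G182R replicate 3). By edgeR or DESeq2 0 were called, and 4 were highest in *Col3a1*+/G182R replicate 3. The sum was 136, 157 and 307 TPM in *Col3a1*+/G182R and 82.4, 86.6, 152 and 210 TPM in *Col3a1*+/+, another order in *Col3a1*+/+ than that of the markers. *H2-Aa* had 36.3, 37.9 and 90.0 TPM in *Col3a1*+/G182R, against 20.4, 19.9, 43.2 and 50.7 TPM in *Col3a1*+/+ (log2 fold change 0.78, SE 0.395, edgeR adjusted p = 0.285; 0.25 without *Col3a1*+/G182R replicate 3). *Col3a1*+/+ replicates 3 and 4, where most markers were low, thus had the higher *H2-Aa* of that genotype.

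Red blood cell genes had a like median difference, with a log2 fold change of 0.87 (1.16 without *Col3a1*+/G182R replicate 3), 5 of 5 genes above 0, 0 called by either test and 2 higher at an unadjusted edgeR p under 0.05. Their order over the libraries was another, with a summed level of 1900.3, 1000.4 and 697 TPM in *Col3a1*+/G182R and 737, 410, 1058 and 507 TPM in *Col3a1*+/+. The highest aorta was *Col3a1*+/G182R replicate 1, where the markers were at the low end of that genotype. Cardiac muscle genes summed to 10.6, 10.02 and 12.5 TPM in *Col3a1*+/G182R and to 93.3, 45.8, 14.4 and 10.9 TPM in *Col3a1*+/+, so that they were highest in *Col3a1*+/+ replicates 1 and 2. Of 6 smooth muscle genes, 0 were called by either test or at an unadjusted edgeR p under 0.05, and their median log2 fold change was -0.04.

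**Figure D4:**
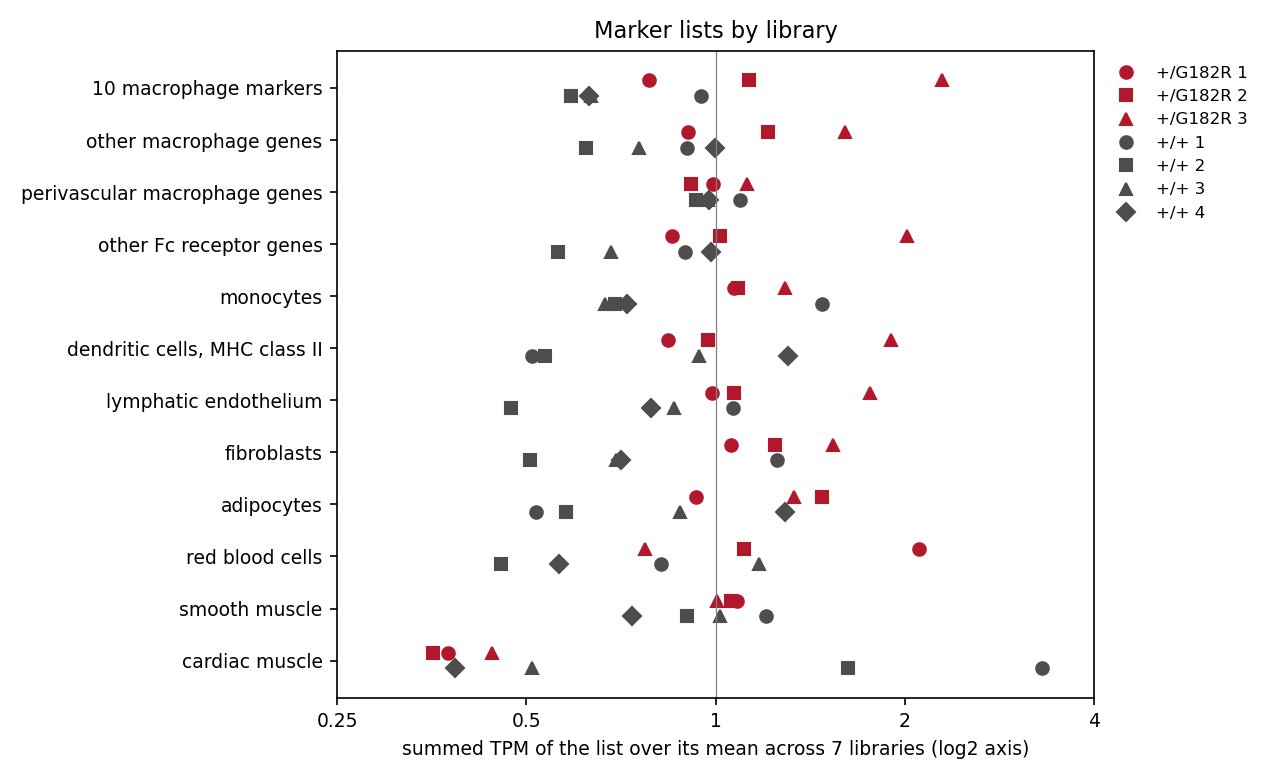
Summed TPM of 12 marker lists in each library over the mean of that list across the 7 libraries (horizontal log2 axis), with Col3a1+/G182R libraries in red above the Col3a1+/+ libraries in grey and shapes for replicate numbers. The 10 macrophage markers reach 2.29 times their mean in Col3a1+/G182R replicate 3, smooth muscle genes lie between 0.736 and 1.20 in all libraries, and red blood cell genes are highest in Col3a1+/G182R replicate 1.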

How the data were processed

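Processed tables of 7 libraries of thoracic aorta, 3 *Col3a1*+/G182R and 4 *Col3a1*+/+, were used. The authors deposited expected counts, TPM and FPKM per gene, made with RSEM 1.3.1 after STAR 2.7.6a on GRCm38 per the submitters' processing notes. Expected counts share reads that match several genes, and they were rounded to whole numbers. Deposited effective lengths (bases per gene and library) entered only an offset in 1 alternative, and the deposited FPKM values were not used. TPM was printed and summed but not tested. Length minus effective length was 121 to 131 bases in *Col3a1*+/G182R and 114 to 120 bases in *Col3a1*+/+, so this technical property and the genotype cannot be told apart.

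Genes were kept with filterByExpr (minimum count 10), scaled with TMM and tested with edgeR 4.0.16, two-sided, with genotype as the only term and Benjamini-Hochberg adjustment over 15688 genes at a threshold of 0.05 (R 4.3.3). Log2 CPM used a prior count of 2. DESeq2 1.42.0 and limma 3.58.1 were alternatives, with other filters, scalings, an effective length offset, a replicate block and each library left out. The code was tested on simulated data. Of the 55487 identifiers, 55227 were found in GENCODE M21. Equal replicate numbers did not pair the mice (r = -0.0469, 0.0153 and 0.0777).

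The members and all lists were chosen with earlier results of these data known. Named are all members, up to 3 genes of each list with the smallest edgeR p, the ligand genes, the 10 genes most like the shared part and paralogs sharing 75-base windows. *Bdnf* and *C1qa* were picked from the 10 after their values were seen. *Cbr2* and *Stab1* were added as the genes of their list with a log2 fold change below 0. *Spi1*, *Mertk*, *Aif1* and *Gas6* were added after their values were seen. *Ccl21a* did not match a single identifier and was left out.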

Additional observations from a re-analysis of the deposited data

Results flagged for a closer look

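In the 4 *Col3a1*+/+ aortas, 13 quantities were examined for a library far from the others, by the gap of an extreme value to its nearest neighbour over the whole range, against Dixon's critical value for 4 samples. Past it were 2, both through *Col3a1*+/+ replicate 1 and both sums over the same 10 genes. The summed level of the markers was 178 TPM there (gap over range 0.873), against 110.4, 118 and 119 TPM in the other *Col3a1*+/+ aortas. The shared part was 0.183 on the log2 scale there (gap over range 0.961), against -0.40, -0.39 and -0.42 in replicates 2, 3 and 4. No single marker passed the limit, the highest being *Fcgr3* at 0.771. Chance flags about 1 in 20 such groups, and the group of 3 *Col3a1*+/G182R aortas is too small for this rule. The part of other cells in this library, which had the highest level of cardiac muscle genes, was not tested.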

How the results depend on the processing

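Over 23 alternatives, the log2 fold changes of the 10 markers kept their direction and stayed on the same side of the threshold in 215 of 230 cases, 13 passed the threshold, and 2 turned direction, both for *Csf1r* without *Col3a1*+/G182R replicate 3 (-0.14 by both tests, against up to 0.41 by edgeR and 0.42 by DESeq2 with another library left out). The number of markers called was 0 by edgeR, 2 by DESeq2, 2 by DESeq2 on all genes with its own filter and 1 with no low-count filter (*Lyz2*). It was 0 for each library left out with edgeR and 0 to 5 with DESeq2. Of all genes, edgeR called 6 (3194 at an unadjusted p under 0.05), limma-voom 11, limma-voom with library quality weights 546, DESeq2 723, DESeq2 with its own filter 667, edgeR without a filter 353, with an effective length offset 14, with RLE factors 6 and with a minimum of 10 counts in all libraries 0 (3046 had an unadjusted p under 0.05, and DESeq2 was not run with that filter). With each library left out, edgeR called 0 to 183 genes and DESeq2 120 to 1860. The cause was not tested. DESeq2 with a library left out and with its own filter were added after the data were seen.

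With the replicate block, 46 genes and 0 markers were called, and the markers' median log2 fold change was 0.68. The numbers do not pair the mice, and *Col3a1*+/+ replicate 4 adds nothing to this fit. The median of the markers was 0.26 to 1.14 over the libraries left out with edgeR and 0.27 to 1.15 with DESeq2. The lowest values came without *Col3a1*+/G182R replicate 3. The genotype difference of the shared part was 0.60, and it was 0.66 with log2(TPM + 0.1), 0.69 without *Lyz2*, *F13a1* and *Cx3cr1*, and 0.59 with RLE factors. The number of mice and, for *Cx3cr1*, the depth limit these comparisons.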
